A study of Mus musculus with 200 samples.

Results

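The 37 genes described here are a list of interferon-stimulated genes, chosen by name from among the 38406 genes of a count table of 200 single thymic cells of mice. The cells came from the medullary thymic epithelium of B6xNOD mice, all female and 5 weeks old. All mice carried an Aire-GFP transgene, a green fluorescent reporter of Aire. Cells negative for CD45 and Ly51 and positive for MHC class II were sorted with high (GFPhi) or low (GFPlo) GFP. The groups were 48 Aire knockout GFPhi cells (KO_GFPhi), 61 Aire wild-type GFPhi cells (WT_GFPhi), 52 Aire knockout GFPlo cells (KO_GFPlo) and 39 Aire wild-type GFPlo cells (WT_GFPlo). Of the 37 members, 36 had a count in at least 1 cell, 35 had at least 50 counts and 6 had at least 1000 counts. Because the labels tie no cell to an animal, a group was taken as 1 sample, and groups are compared without a test.

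Interferons are secreted proteins that bind cell-surface receptors and, through the JAK kinases, activate STAT transcription factors. Type I and type III interferons lead to a transcription factor complex with STAT2 and IRF9 that binds the interferon-stimulated response element (ISRE), whereas interferon gamma acts mainly through the gamma-activated site. The genes switched on in this way encode sensors of viral nucleic acid, proteins that block viral replication, GTPases that act on the vacuoles of intracellular microbes, and feedback inhibitors. Medullary thymic epithelial cells present self antigens to developing T cells, and Aire is the transcription regulator that many of those antigens need. Such cells are also known for producing interferon in the thymus.

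Of 28 members with a promoter window, 18 held a match to the core of the ISRE. Windows from 250 bases before to 50 bases after the gene start, from RefSeq on GRCm38.p6, were matched for 28 of the 37 members, in 33 windows. No window was matched for Zbp1, Oas2, Mx1, Mx2, Rtp4, Iigp1, Usp18, Parp9 and Parp14. The ISRE core was searched as GAAANNGAAA on both strands, with N for any base, and the gamma-activated site as TTCNNNGAA, which is its own reverse complement. The ISRE core was in 19 of 33 member windows (57.6%), against 1131 of all 32851 windows (3.44%). The gamma-activated site was in 7 of 33 member windows (21.2%), against 8.30% of all windows, and the matches of both motifs overlapped in 1 member window. Of the 28 ISRE matches, in 18 members, 17 began within 100 bases before the start, and the median first base was 65 bases before it. These are matches of letters and not measured binding.

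The first 4 windows below belong to the members with most counts among those with an ISRE core. They are those of Ifit1, a protein that binds foreign RNA ends, Trim30a, a TRIM family protein, Irgm2, an immunity-related GTPase, and Bst2 (tetherin), which holds budding virus at the cell surface. Isg15, a ubiquitin-like modifier, and Rsad2 (viperin), a radical SAM enzyme, were added after their values were seen, because they had the lowest ratios below among members with an ISRE core. The core was in 9 of 14 members with a window that were at least 2-fold lower in KO_GFPhi than in WT_GFPhi cells. It was in 7 of 12 within 2-fold, and the windows of Irf7, Ifit2 and Cmpk2, whose ratios were lower still, held none. A link between core and ratio was not tested. Bases are read 5′ to 3′ on the gene's strand, and capitals mark the ISRE core or its reverse complement, which run together where matches overlap.
Ifit1, chr19:34640639-34640938, plus strand: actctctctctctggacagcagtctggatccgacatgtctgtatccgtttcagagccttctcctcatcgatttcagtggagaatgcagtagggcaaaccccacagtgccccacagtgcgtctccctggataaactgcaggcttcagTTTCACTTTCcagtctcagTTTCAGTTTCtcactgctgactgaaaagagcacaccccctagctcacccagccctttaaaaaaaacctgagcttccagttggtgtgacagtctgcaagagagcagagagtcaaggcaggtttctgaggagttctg
Trim30a, chr7:104465144-104465443, minus strand: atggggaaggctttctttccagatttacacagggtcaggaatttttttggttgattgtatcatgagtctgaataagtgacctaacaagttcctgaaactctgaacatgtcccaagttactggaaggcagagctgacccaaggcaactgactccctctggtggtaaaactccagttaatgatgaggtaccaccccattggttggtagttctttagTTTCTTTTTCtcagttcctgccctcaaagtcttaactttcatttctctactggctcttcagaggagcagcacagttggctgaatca
Irgm2, chr11:58214727-58215026, plus strand: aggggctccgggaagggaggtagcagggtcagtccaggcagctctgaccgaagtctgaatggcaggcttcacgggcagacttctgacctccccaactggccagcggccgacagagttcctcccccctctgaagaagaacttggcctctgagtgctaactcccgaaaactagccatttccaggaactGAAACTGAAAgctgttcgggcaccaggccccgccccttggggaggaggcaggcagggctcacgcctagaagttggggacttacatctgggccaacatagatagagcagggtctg
Bst2, chr8:71537423-71537722, minus strand: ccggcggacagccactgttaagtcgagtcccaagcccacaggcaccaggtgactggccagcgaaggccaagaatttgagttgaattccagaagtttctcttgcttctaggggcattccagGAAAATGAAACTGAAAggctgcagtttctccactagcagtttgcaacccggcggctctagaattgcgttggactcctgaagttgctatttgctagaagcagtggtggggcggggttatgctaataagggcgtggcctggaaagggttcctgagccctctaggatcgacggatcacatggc
Isg15, chr4:156200769-156201068, minus strand: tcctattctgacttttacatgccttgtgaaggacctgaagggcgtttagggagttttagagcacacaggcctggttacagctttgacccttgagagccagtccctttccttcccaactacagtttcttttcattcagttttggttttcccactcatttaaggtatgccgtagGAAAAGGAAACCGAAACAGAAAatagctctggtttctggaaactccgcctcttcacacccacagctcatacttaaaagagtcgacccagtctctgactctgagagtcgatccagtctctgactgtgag
Rsad2, chr12:26456403-26456702, minus strand: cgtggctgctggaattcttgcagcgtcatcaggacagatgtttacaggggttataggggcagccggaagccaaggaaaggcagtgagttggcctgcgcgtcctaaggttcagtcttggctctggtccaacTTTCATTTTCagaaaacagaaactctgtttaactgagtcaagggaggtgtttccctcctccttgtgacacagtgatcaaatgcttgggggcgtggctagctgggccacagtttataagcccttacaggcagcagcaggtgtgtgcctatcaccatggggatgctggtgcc

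Isg15 held 3 overlapping matches that began 78 bases before the start, and Bst2 held 2 that began 130 bases before it. Ifit1 held 2 separate matches, and Trim30a, Irgm2 and Rsad2 held 1 each in the window shown. The Irgm2 and Bst2 windows also held a gamma-activated site.

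**Figure D1:**
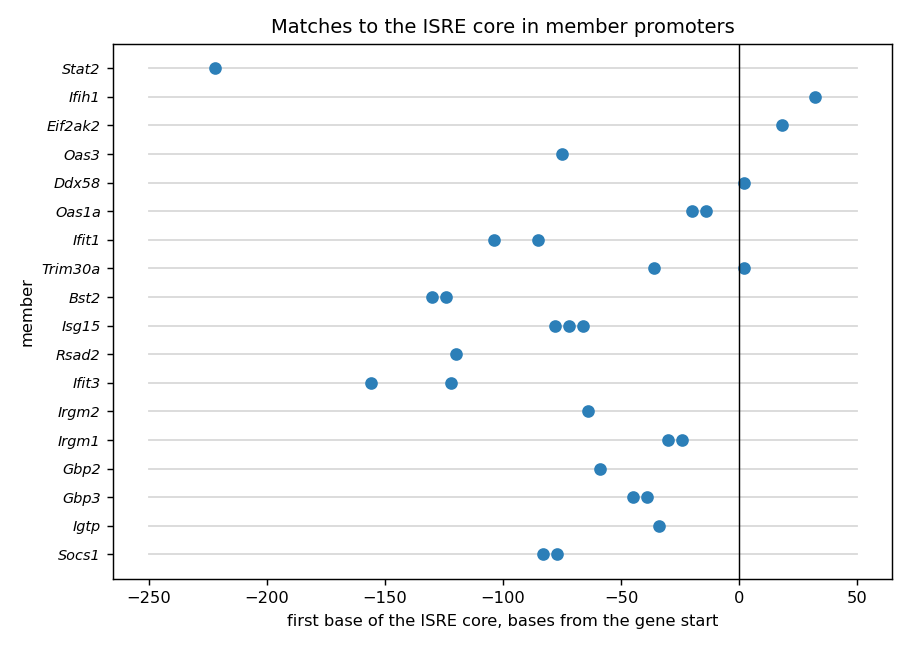
Position of each match to the ISRE core in the promoter windows of 18 members. The x axis gives the first base of the match in bases from the gene start, each row is a member, and grey lines span the window. Of the 28 matches, 17 lie within the 100 bases before the start and 4 lie at or after it.

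The summed level of the members was lowest in KO_GFPhi cells and highest in WT_GFPlo cells. Levels are counts per 1000000 summed counts of a group (CPM), and the brackets that follow them are exact Poisson 95% intervals. In KO_GFPhi cells the members had 3569 counts, a level of 1185 CPM (1146 to 1224). WT_GFPhi cells had 6354 counts, a level of 1832 CPM (1787 to 1878). KO_GFPlo cells had 4193 counts, a level of 2270 CPM (2202 to 2340), and WT_GFPlo cells had 6297 counts, a level of 2785 CPM (2717 to 2855). No interval overlapped another, but the intervals cover counting error only: tags are not independent molecules, and differences between animals cannot be told apart from differences between groups. The order of the 4 groups was the same on the second sort date, with 1201, 1647, 2375 and 3154 CPM for KO_GFPhi, WT_GFPhi, KO_GFPlo and WT_GFPlo. On the first date the levels were 1144, 2197, 2088 and 2388 CPM in that order, so that KO_GFPhi cells were lowest and the other groups lay closer together.

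**Figure D2:**
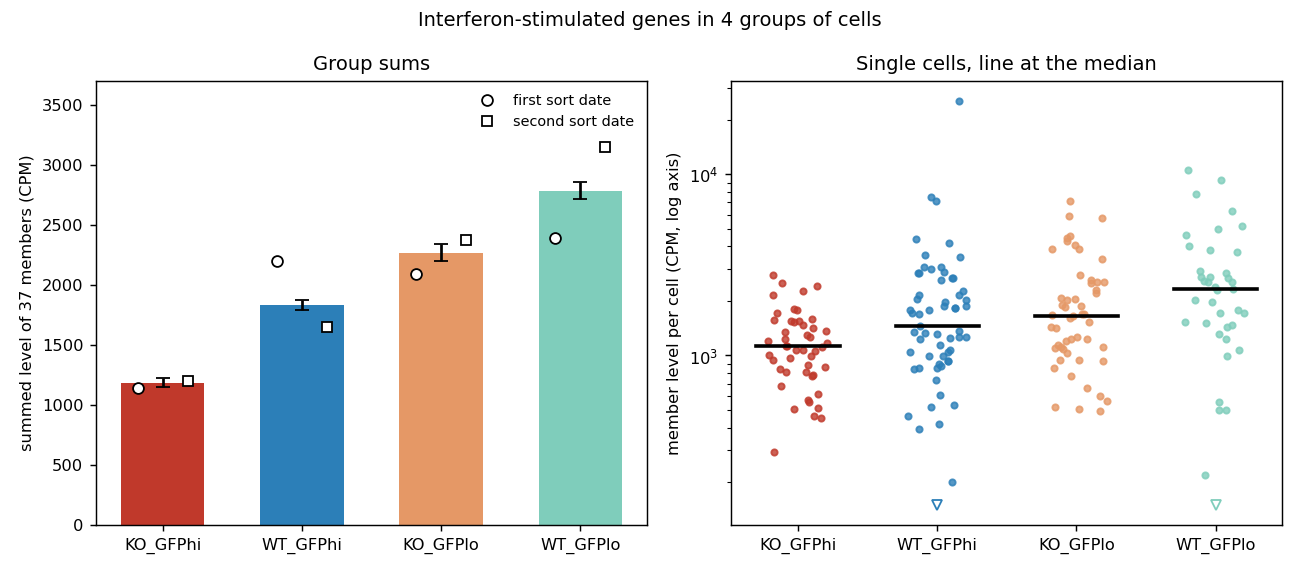
Summed level of the 37 members by group. On the left, bars give the level in CPM of the group's counts with the exact Poisson 95% interval, and open symbols give each sort date. On the right, points are single cells on a log axis, lines are medians, and open triangles at the bottom are cells with no member count. The KO_GFPhi cells end at 2793 CPM, and 20 cells of the other groups lie at or above 4000 CPM.

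As a ratio with an exact binomial 95% interval for counting error, the summed level in KO_GFPhi cells was 0.647 of that in WT_GFPhi cells (0.621 to 0.674). Within sort dates this ratio was 0.521 on the first date and 0.729 on the second. All 12 library pools held cells of both groups, and KO_GFPhi was below WT_GFPhi in 10 of the 12. Each pool of the first date held only 1 or 2 KO_GFPhi cells, so pools do not stand for replicates. In KO_GFPlo cells the summed level was 0.815 of that in WT_GFPlo cells (0.783 to 0.848), and it was lower in 9 of 11 pools with both. With cells of the primer kind called ls alone, this ratio turned round, to a log2 ratio of 0.24 in place of -0.30. WT_GFPhi cells had 0.658 of the level in WT_GFPlo cells (0.635 to 0.681), with 0.920 on the first date and 0.522 on the second, and were lower in 8 of 11 pools. KO_GFPhi cells had 0.522 of the level in KO_GFPlo cells (0.499 to 0.546), with 0.548 and 0.506 on the dates, and were lower in 11 of 12 pools.

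Single cells differed widely around these sums. The level per cell ran from 292 CPM through a median of 1124 to 2793 CPM in KO_GFPhi cells, and from 0 through 1447 to 25337 CPM in WT_GFPhi cells. It ran from 493 CPM through a median of 1656 to 7090 CPM in KO_GFPlo cells, and from 0 through 2325 to 10633 CPM in WT_GFPlo cells. A level of at least 4000 CPM, a limit set after the values were seen, was reached by 0 KO_GFPhi, 5 WT_GFPhi, 7 KO_GFPlo and 8 WT_GFPlo cells. Among these, a KO_GFPlo and a WT_GFPhi cell of pool 6 had similar member counts, as given below, and may not be independent. The highest cell, of the WT_GFPhi group and the first date, had 344 member counts among 13577 and held 24 of the 37 members when thinned. Without the highest cell of each group the log2 ratio of KO_GFPhi over WT_GFPhi was -0.56, against -0.63 with all cells. The cell with most member counts gave 10.9% of them in KO_GFPhi, 7.60% in WT_GFPhi, 24.1% in KO_GFPlo and 14.3% in WT_GFPlo cells. For the 5 cells with most, the shares were 35%, 29.8%, 45.6% and 51.9% in that order. The KO_GFPlo cell had 1010 member counts and more leukocyte than epithelial marker counts. It also had the most leukocyte marker counts of its group. Without the cell with most such counts in each group, the member ratio was 0.657 for KO_GFPlo over WT_GFPlo and 0.632 for KO_GFPhi over KO_GFPlo. It was 0.669 for KO_GFPhi over WT_GFPhi and 0.621 for WT_GFPhi over WT_GFPlo.

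The number of members seen in a cell followed the same direction in the GFPhi cells. Each cell was thinned to 13300 counts, which left out 40 shallower cells. The median number of members detected was 6 in 40 KO_GFPhi cells, 8 in 48 WT_GFPhi cells, 9 in 43 KO_GFPlo cells and 8 in 29 WT_GFPlo cells. At least 10 members were detected in 3 of 40 KO_GFPhi cells (7.5%, exact binomial 95% interval 1.57 to 20.4%) and in 15 of 48 WT_GFPhi cells (31.3%, 18.7 to 46.3%). The share was 32.6% of KO_GFPlo cells and 31% of WT_GFPlo cells. KO_GFPhi had the lowest share. The intervals cover the counting of cells only. Cells share pools and dates and no animal is named, so the intervals do not compare the groups. Before thinning, the median number over all cells was 9 in KO_GFPhi, 13 in WT_GFPhi, 11 in KO_GFPlo and 13 in WT_GFPlo.

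**Figure D3:**
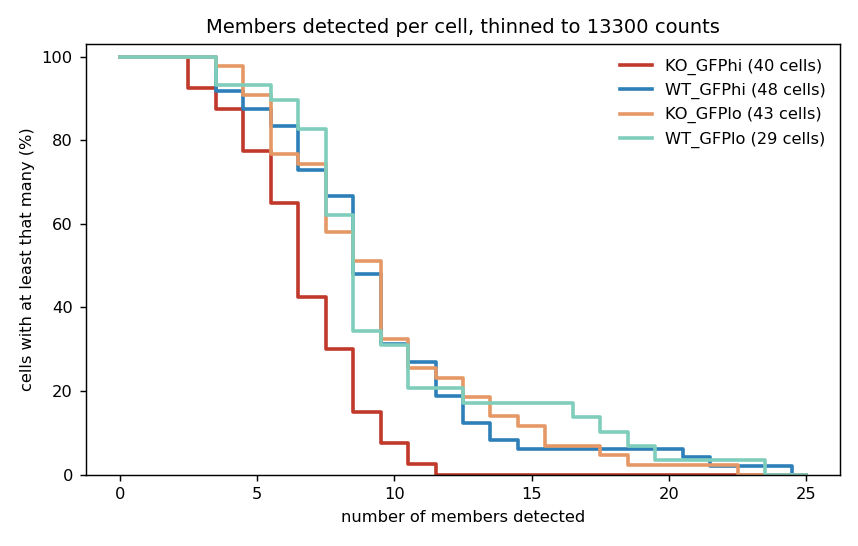
Share of cells in which at least a given number of members was detected, after each cell was thinned to 13300 counts. The x axis is the number of members, the y axis is the percent of a group's cells, and each line is a group. The KO_GFPhi line ends at 11 members, and the WT_GFPhi, KO_GFPlo and WT_GFPlo lines end at 24, 22 and 23.

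In GFPhi cells, Irf7 and 9 of 12 antiviral effectors were at least 2-fold lower in the knockout, while Irf1, Usp18, Iigp1 and the effector Xaf1 were not. A member is counted as lower or higher where its levels were at least 2-fold apart with at least 10 counts over the pair. Among the 34 members with that many counts, 18 were at least 2-fold lower in KO_GFPhi than in WT_GFPhi cells, 0 were at least 2-fold higher, and 16 lay between. Over all 15033 genes with that many counts, 29.5% were at least 2-fold lower and 20.2% at least 2-fold higher. The median log2 ratio of the members was -1.04, against -0.13 over all genes. By role, 9 of 12 antiviral effectors, 4 of 8 sensors and RNA-dependent effectors, 2 of 4 transcription regulators, 2 of 5 feedback and ubiquitin or ADP-ribose regulators and 1 of 5 GTPases were lower.

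**Figure D4:**
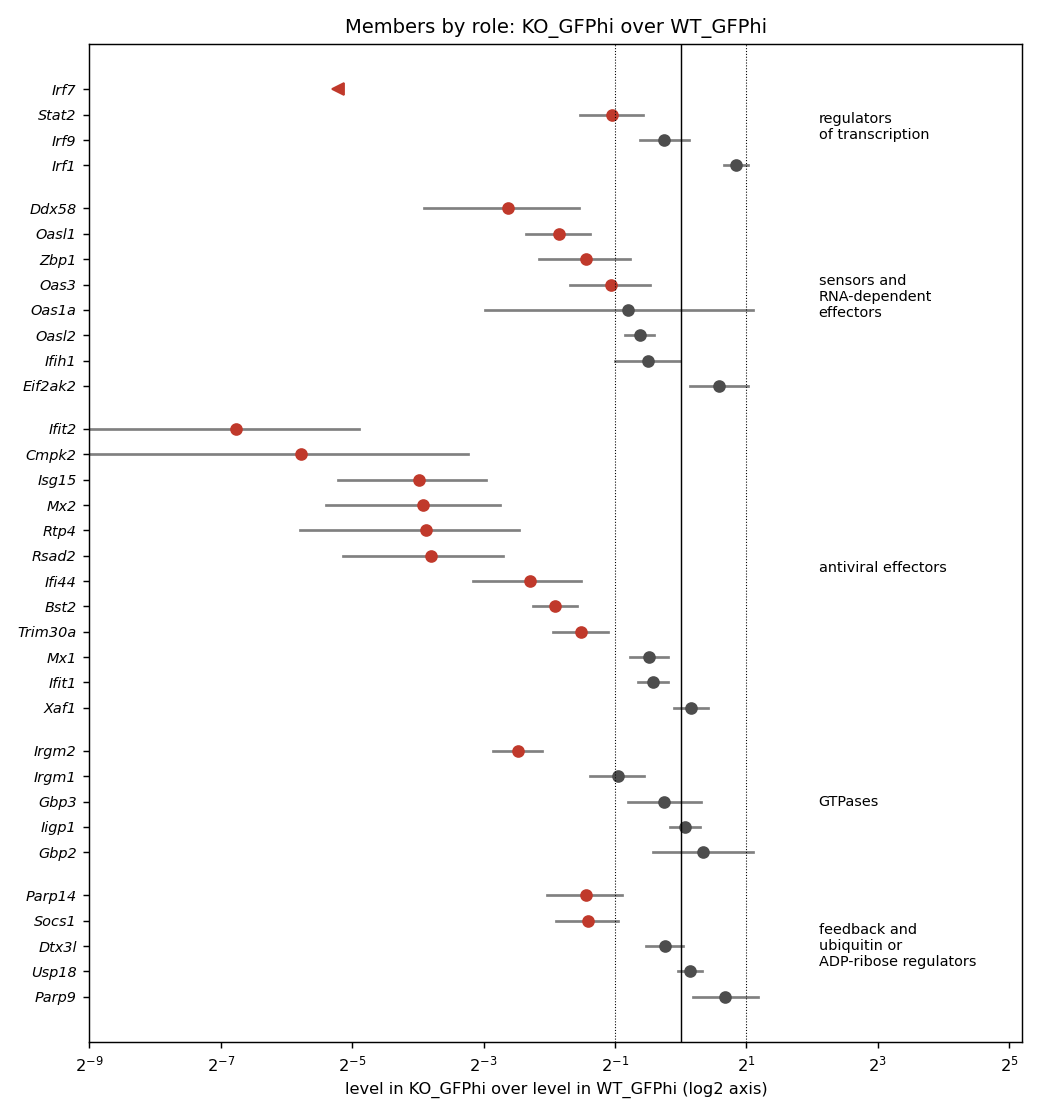
Level in KO_GFPhi over level in WT_GFPhi for the 34 members with at least 10 counts in the pair, by role, on a log2 axis. Points are ratios, lines are exact binomial 95% intervals for counting error (cut at the left edge for Ifit2 and Cmpk2), red marks ratios at least 2-fold lower, and the triangle for Irf7 is an upper bound. Dotted lines mark 2-fold, and no member lies past the right one.

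Among the transcription regulators, Irf7, the factor that amplifies the type I response, stood apart. It had 0 counts in KO_GFPhi cells and 128 counts, 36.9 CPM, in WT_GFPhi cells, at least 37.1-fold lower with a floor of 3 counts for the group. It was detected in 0 of 48 KO_GFPhi cells, which allows a share of up to 6.25% of cells with a tag and sets no limit on cells that express the gene, and in 26 of 61 WT_GFPhi cells, and the WT_GFPhi counts came from both dates (38 and 90). Stat2, a part of the ISRE-binding complex, had 17.9 CPM in KO_GFPhi and 36.9 CPM in WT_GFPhi cells, a log2 ratio of -1.03. Without pool 11 that value was -0.81, without pool 5 it was -0.90 and without pool 9 it was -0.99. Irf9, the DNA-binding part of the complex, had 36.2 CPM in KO_GFPhi and 43 CPM in WT_GFPhi cells, a ratio of 0.842 (0.652 to 1.09). Irf1, a factor induced strongly by interferon gamma, went the other way, with 209.5 CPM in KO_GFPhi and 116 CPM in WT_GFPhi cells, a ratio of 1.80 (1.58 to 2.04). Irf1 was above WT_GFPhi on both dates, with 129 CPM in KO_GFPhi and 70.3 CPM in WT_GFPhi cells on the first, and 241 CPM in KO_GFPhi and 140 CPM in WT_GFPhi cells on the second.

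Of the antiviral effectors, Isg15 had 2.66 CPM in KO_GFPhi and 41.8 CPM in WT_GFPhi cells, a ratio of 0.0635 (0.0269 to 0.129). It was detected in 4 of 48 KO_GFPhi and 20 of 61 WT_GFPhi cells, and it was lower on each date, with 0 against 44.6 CPM on the first and 3.70 against 40.4 CPM on the second for KO_GFPhi against WT_GFPhi. Without pool 10 its log2 ratio was -5.10, against -3.89 with all pools. Isg15 counts in WT_GFPhi cells thus came from both dates, unlike those of Ifit2, Cmpk2, Rsad2 and Rtp4, which came mostly from 1 date. Ifit2, a relative of Ifit1, had 2 counts in KO_GFPhi and 250 in WT_GFPhi cells, a ratio of 0.00921 (0.00111 to 0.0336). Of the 250 counts, 248 were of the first date and 152 of 1 cell, and without pool 5 the log2 ratio was -7.36 in place of -6.44. Cmpk2, a nucleotide kinase of mitochondria, had 1 count in KO_GFPhi and 63 in WT_GFPhi cells, all 63 of the first date, a ratio of 0.0183 (0.000456 to 0.106). Of the 63 counts, 34, 17 and 10 were of 3 cells, and the last of these cells held the 152 Ifit2 counts. The log2 ratio of Cmpk2 was -4.11 without pool 3 and -6.75 without pool 11.

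The values of Rsad2, Mx2 and Rtp4 also moved when 1 pool was left out, although each stayed at least 2-fold lower without any single pool. Rsad2 had 7 counts in KO_GFPhi and 112 in WT_GFPhi cells, of which 106 were of the first date. Of the 112 counts, 64, 20 and 14 were of the 3 cells given above for Cmpk2. The log2 ratio of Rsad2 was -3.70 with all cells, -2.47 without pool 3, -4.38 without pool 11 and -0.15 on the second date alone. Mx2, a dynamin-like GTPase, had 6 counts in KO_GFPhi and 105 in WT_GFPhi cells, with a log2 ratio of -6.62 on the first date and -2.47 on the second. Without pool 11 the Mx2 value was -6.90. The mouse Mx2 locus is annotated as a polymorphic pseudogene, so its tags stand for transcript and not for protein. Rtp4, a chaperone of receptors, had 4 counts in KO_GFPhi and 68 in WT_GFPhi cells, all 68 of the second date, with a log2 ratio of -3.72, or -3.13 without pool 11.

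Bst2, Ifi44 and Trim30a were lower by less. Bst2 had 30.2 CPM in KO_GFPhi and 114 CPM in WT_GFPhi cells, a ratio of 0.266 (0.209 to 0.335). Its log2 ratio was -0.15 on the first date, -2.91 on the second and -2.73 without pool 6. Ifi44 had 5.31 CPM in KO_GFPhi and 26 CPM in WT_GFPhi cells, a log2 ratio of -2.25, or -1.12 without pool 11 and -3.81 without pool 1. Trim30a is the least firm of these: its log2 ratio was -1.51 with all cells, 3.59 on the first date alone, 0.04 without leukocyte-marked cells, -0.95 without pool 11 and -2.58 without pool 6. The other effectors with enough counts were within 2-fold. Ifit1 had 85.3 CPM in KO_GFPhi and 114 CPM in WT_GFPhi cells, Mx1, the nuclear dynamin-like GTPase, had 54.5 CPM in KO_GFPhi and 76.1 CPM in WT_GFPhi cells, and Xaf1, a partner of the inhibitor of apoptosis XIAP, had 82.7 CPM in KO_GFPhi and 74.4 CPM in WT_GFPhi cells. Xaf1 was the member detected in most cells of both GFPhi groups, in 44 of 48 KO_GFPhi and 49 of 61 WT_GFPhi cells.

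Among sensors and RNA-dependent effectors, Ddx58 (RIG-I, a sensor of viral RNA) had 8 counts in KO_GFPhi and 57 in WT_GFPhi cells, a ratio of 0.162 (0.0666 to 0.340). Without leukocyte-marked cells its log2 ratio was -0.31, against -2.55 with all cells. Oasl1, a relative of the 2′-5′ oligoadenylate synthetases that limits translation of Irf7, had 15.3 CPM in KO_GFPhi and 55.4 CPM in WT_GFPhi cells and was lower on both dates, with log2 ratios of -1.24 and -2.21. Oas3, a synthetase of this family, had a log2 ratio of -1.05 that came within 2-fold on leaving out any of 4 pools, with -0.85 without pool 8, -0.96 without pool 4, -0.97 without pool 7 and -0.99 without pool 9. Zbp1, a sensor of Z-form nucleic acid, had -1.42, which was -0.37 without pool 5 and -3.35 without pool 12. The RNA sensor Ifih1 (MDA5) had 18.9 CPM in KO_GFPhi and 26.8 CPM in WT_GFPhi cells, and Oasl2, the member with most counts, had 88.0 CPM in KO_GFPhi and 135 CPM in WT_GFPhi cells. Eif2ak2 (PKR), a kinase that halts translation on viral RNA, had 33.2 CPM in KO_GFPhi and 22.2 CPM in WT_GFPhi cells, a ratio of 1.5 (1.10 to 2.04). Oas1a had 4 counts in KO_GFPhi and 8 in WT_GFPhi cells, and Oas2 had 0 in both.

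The GTPases that act on vacuoles of microbes were split. Irgm2 had 23.2 CPM in KO_GFPhi and 129 CPM in WT_GFPhi cells, a ratio of 0.180 (0.138 to 0.232). It was lower on each date, with 34 CPM in KO_GFPhi and 123 CPM in WT_GFPhi cells on the first and 19 CPM in KO_GFPhi and 132 CPM in WT_GFPhi cells on the second, and its log2 ratio was -1.84 without pool 11 in place of -2.47. Irgm1, a regulator of the same family, had 24.6 CPM in KO_GFPhi and 47.9 CPM in WT_GFPhi cells. Iigp1, an effector GTPase of the family, had 105 CPM in KO_GFPhi and 100.3 CPM in WT_GFPhi cells, a ratio of 1.05 (0.895 to 1.22). The guanylate-binding proteins Gbp2 and Gbp3 had ratios of 1.27 (0.749 to 2.15) and 0.842 (0.570 to 1.24). Igtp had 0 counts in all 200 cells. Its annotated span (GENCODE M21, chr11:58199556-58207591, plus strand) lies mostly within that of Irgm2 (chr11:58199618-58222782, plus strand), so tags of the 2 genes may not have been told apart, and values for Irgm2 are uncertain in this respect.

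Among the feedback and ADP-ribose regulators, Socs1, an inhibitor of JAK kinases, had 17.3 CPM in KO_GFPhi and 46.1 CPM in WT_GFPhi cells, a log2 ratio of -1.41 that was -0.67 without pool 5 and -0.28 on the second date alone. Parp14, an ADP-ribosyltransferase, had 12 CPM in KO_GFPhi and 32.6 CPM in WT_GFPhi cells, a log2 ratio of -1.43 that was -2.16 without pool 12 and -0.06 without leukocyte-marked cells. Usp18, which removes ISG15 from proteins and dampens the type I receptor, did not share in this. It had 155 CPM in KO_GFPhi and 141 CPM in WT_GFPhi cells, a ratio of 1.10 (0.966 to 1.25). Its dates pointed in opposite directions, with 21.1 CPM in KO_GFPhi and 159 CPM in WT_GFPhi cells on the first and 207 CPM in KO_GFPhi and 131 CPM in WT_GFPhi cells on the second. Parp9 and the ubiquitin ligase Dtx3l, which act as a complex, had ratios of 1.60 (1.14 to 2.25) and 0.846 (0.695 to 1.03). Their annotated spans overlap on opposite strands. Irf9, Rtp4 and Parp14 overlap other annotated genes on the same strand (Rnf31, Gm45338 and Gm49730), so tags of those pairs may not have been told apart either.

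The sort dates agreed in part. Of 28 members with at least 10 counts on each date over the GFPhi pair, 15 were at least 2-fold lower in KO_GFPhi cells on the first date. Of those 15, 11 were also below WT_GFPhi on the second date, 5 of them by at least 2-fold. The 3 that were at least 2-fold higher on the first date were all below WT_GFPhi on the second. Among all members with enough counts on a date, 17 of 30 were lower and 3 higher on the first, against 40.3% lower and 25.2% higher of all genes. On the second, 15 of 31 were lower and 0 higher, against 27.3% lower and 24.5% higher of all genes. Only 9 KO_GFPhi cells were of the first date, against 39 of the second. Of the 18 members lower over both dates, 13 stayed at least 2-fold lower in every value with a pool left out, and the calls of Stat2, Zbp1, Oas3, Trim30a and Socs1 ended without at least 1 pool.

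Transcripts of white blood cells differed between the same groups. The summed level of 24 leukocyte markers was 2204 CPM in KO_GFPhi and 11053 CPM in WT_GFPhi cells. Of the 23 with enough counts, 14 were at least 2-fold lower in KO_GFPhi cells, against 29.5% of all genes. The sum rested on few cells: 3 WT_GFPhi cells held 77.0% of that group's marker counts, and without the 3 cells with most marker counts in each group the levels were 2135 CPM in KO_GFPhi and 3285 CPM in WT_GFPhi cells. In GFPlo cells it was 4850 CPM in KO_GFPlo and 16709 CPM in WT_GFPlo cells, of which 1 WT_GFPlo cell held 75.6% of the counts. Without the 1 cell with most marker counts in each group the levels were 4452 CPM in KO_GFPlo and 4448 CPM in WT_GFPlo cells, and without 3 in each they were 3372 CPM in KO_GFPlo and 1649 CPM in WT_GFPlo cells. The ratio of the summed member level without those 3 cells in each group was 0.579 for KO_GFPhi over WT_GFPhi and 0.650 for KO_GFPlo over WT_GFPlo. None of the 24 markers was at 0 in every group, although Cd3e had 0 to 3 counts in each, and Ptprc, which encodes CD45, had 13, 222, 186 and 111 counts in KO_GFPhi, WT_GFPhi, KO_GFPlo and WT_GFPlo cells. Cells in which these markers had more counts than 12 epithelial markers numbered 6 in KO_GFPhi, 20 in WT_GFPhi, 21 in KO_GFPlo and 9 in WT_GFPlo. The member level was close in marked and other KO_GFPhi cells, at 1191 and 1184 CPM, and lower in marked than in other WT_GFPhi cells, at 1445 and 2143 CPM. Without the marked cells the ratio of KO_GFPhi over WT_GFPhi was 0.553 (0.528 to 0.579), and 15 of 33 members were at least 2-fold lower and 0 higher, against 28.2% lower and 22.1% higher of all genes in the same cells.

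Other facts of the libraries bear on all groups. Aire itself gave 815 CPM in KO_GFPhi, 537 CPM in WT_GFPhi, 316 CPM in KO_GFPlo and 244 CPM in WT_GFPlo cells, so the knockout was not visible in the tag count of the gene, and whether the counted tags lie outside the deleted part is not given in the sources used here. The epithelial marker Epcam was detected in 42 of 48 KO_GFPhi, 52 of 61 WT_GFPhi, 36 of 52 KO_GFPlo and 32 of 39 WT_GFPlo cells, and H2-Aa, of MHC class II, in all 200. Totals per cell ran from 2429 to 370365 counts, and group totals from 1847240 to 3468109.

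In GFPlo cells the direction of the members depended on which cells were counted. Of 36 members with enough counts, 14 were at least 2-fold lower and 8 at least 2-fold higher in KO_GFPlo than in WT_GFPlo cells, against 27.7% lower and 23.8% higher of all genes, so the higher share was close to that of all genes. The median log2 ratio was -0.22, against -0.05 over all genes. On the first date 10 of 33 were lower and 14 higher, against 34.2% and 28.4% of all genes, and on the second 17 of 34 were lower and 9 higher, against 28.1% and 28.7%. Without leukocyte-marked cells 14 of 36 were lower and 4 higher, against 29.5% and 24.4% of all genes. Leaving out 1 pool ended the call of 11 of the 20 members that had 50 counts and were 2-fold apart, so few single values are given. Parp14 had 36.3 CPM in KO_GFPlo and 3.98 CPM in WT_GFPlo cells, a ratio of 9.11 (4.52 to 20.8), opposite to its direction in GFPhi cells. Stat2 had 34.7 CPM in KO_GFPlo and 6.64 CPM in WT_GFPlo cells, a ratio of 5.22 (2.94 to 9.87), and Ifit1 had 199 CPM in KO_GFPlo and 74.8 CPM in WT_GFPlo cells, a ratio of 2.66 (2.22 to 3.22). The values of these 3 genes kept the call without each pool in turn.

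Oas3 and Iigp1 were among the lower members in GFPlo cells. Oas3 had 7.58 CPM in KO_GFPlo and 50.4 CPM in WT_GFPlo cells, a log2 ratio of -2.69 that was -2.04 without pool 12 and -3.29 without pool 8. Iigp1 had 39 CPM in KO_GFPlo and 124 CPM in WT_GFPlo cells, a log2 ratio of -1.66 that was -2.57 without pool 4. Irf7, at 0 counts in KO_GFPhi cells, was detected here, with 17.3 CPM in KO_GFPlo and 59.3 CPM in WT_GFPlo cells, although its log2 ratio of -1.76 was 1.01 with ls primers alone. Isg15, with 54.7 CPM in KO_GFPlo and 59.7 CPM in WT_GFPlo cells, had a ratio of 0.916 (0.700 to 1.19). Oas2 shows how far 1 cell can carry a member: of its 116 counts in KO_GFPlo cells, 115 were of a single cell, and its log2 ratio of 2.13 was -5.71 without pool 5 and 5.13 without pool 11.

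**Figure D5:**
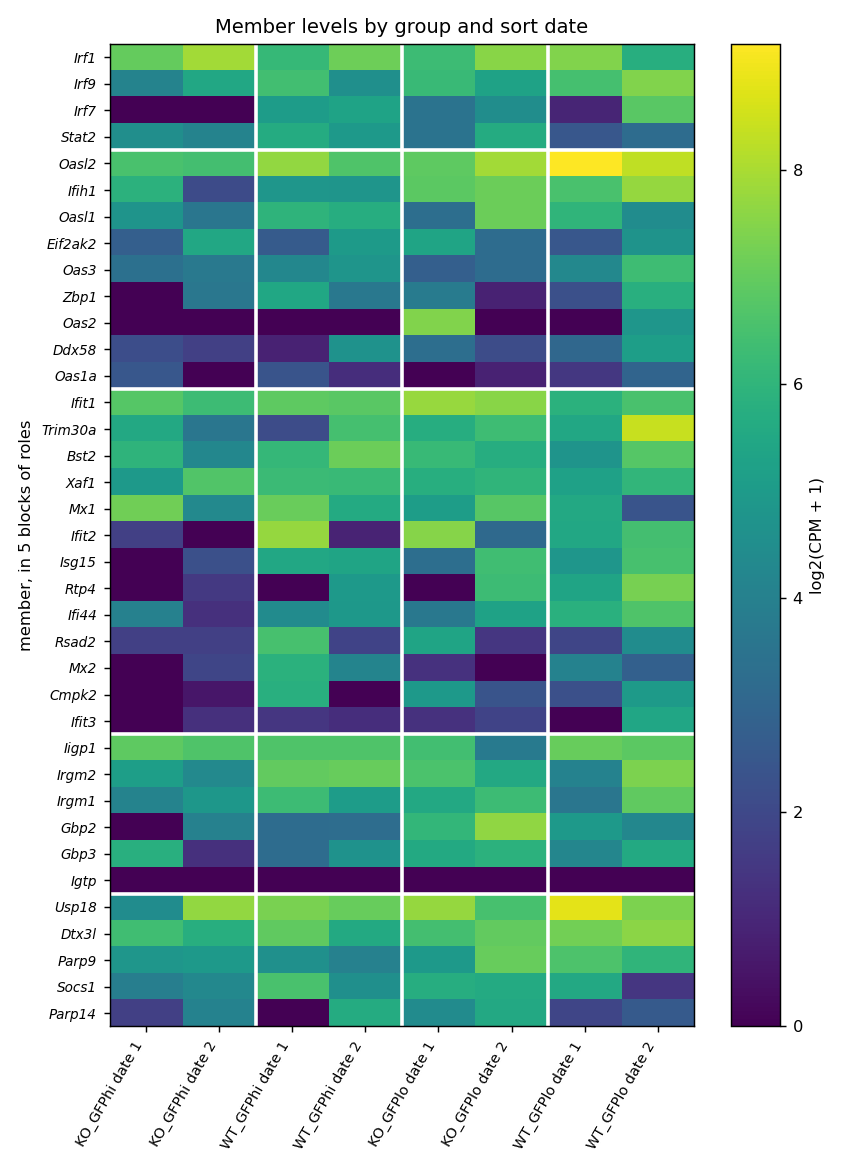
Level of each member in each group and sort date, as log2 of the CPM plus 1. Rows are members in 5 blocks of roles (transcription regulators, sensors and RNA-dependent effectors, antiviral effectors, GTPases, feedback and ubiquitin or ADP-ribose regulators), by total counts within a block, and columns are groups by date. Irf7 and Isg15 are dark in KO_GFPhi cells, with Irf7 at 0 on both dates, and Igtp is at 0 throughout.

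Between the GFP gates, 4 of 9 sensors and RNA-dependent effectors were at least 2-fold lower in WT_GFPhi than in WT_GFPlo cells and 5 of 8 in KO_GFPhi than in KO_GFPlo cells, with 0 higher in either. In WT cells, 13 of 36 members were at least 2-fold lower and 6 at least 2-fold higher in WT_GFPhi than in WT_GFPlo cells, against 24.2% lower and 27.9% higher of all genes. This split turned round on the first date, with 10 of 31 lower and 14 higher, against 30.7% and 32.3% of all genes, while on the second 20 of 36 were lower and 7 higher, against 24.9% and 33.4%. In KO cells, 21 of 33 were at least 2-fold lower and 1 at least 2-fold higher in KO_GFPhi than in KO_GFPlo cells, against 26.2% lower and 24.8% higher of all genes. By date, 13 of 28 were lower and 3 higher on the first, against 35.1% and 27.3% of all genes, and 20 of 28 were lower and 4 higher on the second, against 25.2% and 30.9%. The median log2 ratio was -0.47 in WT cells, against 0.05 over all genes, and -1.44 in KO cells, against -0.03 over all genes. The difference between the genotypes in this contrast was not tested. The summed level of sensors and RNA-dependent effectors was 304 CPM in WT_GFPhi and 774 CPM in WT_GFPlo cells, and 179 CPM in KO_GFPhi and 517 CPM in KO_GFPlo cells. Most of these sums came from Oasl2 and Ifih1 and, in KO_GFPlo cells, also from Oas2. The other 6 genes together had 142 CPM in WT_GFPhi and 163 CPM in WT_GFPlo cells, and 72.0 CPM in KO_GFPhi and 130 CPM in KO_GFPlo cells.

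Ifih1 was low in GFPhi cells of either genotype. It had 26.8 CPM in WT_GFPhi and 155 CPM in WT_GFPlo cells, a ratio of 0.173 (0.136 to 0.218). It had 18.9 CPM in KO_GFPhi and 130 CPM in KO_GFPlo cells, a log2 ratio of -2.77 that was -3.67 without pool 4. Oasl2 had 135 CPM in WT_GFPhi and 441 CPM in WT_GFPlo cells, a ratio of 0.306 (0.274 to 0.342), and 88.0 CPM in KO_GFPhi and 194 CPM in KO_GFPlo cells, a log2 ratio of -1.14 that was -0.86 without pool 11 and -0.95 without pool 12. Irf7, Isg15 and Ifit2 were another pattern: they were within 2-fold between the WT gates, with ratios of 0.623, 0.700 and 1.09, and at least 2-fold lower in KO_GFPhi than in KO_GFPlo cells. For Ifit2 this rests on 1 cell, which held 109 of the 131 counts in KO_GFPlo cells. A WT_GFPhi cell of the same pool, with 152 Ifit2 counts, had similar member counts. Irgm2, Bst2 and Irf9 had 29, 27 and 13 counts in the KO_GFPlo cell and 40, 37 and 24 in the WT_GFPhi cell. In pool 6, Rsad2 and Cmpk2 had 12 and 12 counts in a KO_GFPlo cell and 20 and 17 in a WT_GFPhi cell. The reason for this likeness was not tested, and such cells may not be independent of each other. The log2 ratio of Isg15 between the KO gates was -4.28, or -5.51 without pool 10, -3.64 without pool 11 and -3.58 without pool 12. Iigp1 was the 1 member at least 2-fold higher in KO_GFPhi than in KO_GFPlo cells, with 105 CPM in KO_GFPhi and 39 CPM in KO_GFPlo cells, a log2 ratio of 1.42 that was 2.11 without pool 4 and 0.88 without pool 11.

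Across the whole table the members differed strongly in abundance, as counts that are not adjusted for gene length. Oasl2 had 2091 counts, Usp18 1888, Irf1 1556, Ifit1 1190, Dtx3l 1021 and Iigp1 1016, and Oas1a had 23 and Ifit3, of the same family as Ifit1, had 62, of which 50 were in WT_GFPlo cells. Dtx3l had 60.8 CPM in KO_GFPhi, 71.8 CPM in WT_GFPhi, 110 CPM in KO_GFPlo and 171 CPM in WT_GFPlo cells, in the same order as the summed level. Members were only weakly linked from cell to cell. Over 160 thinned cells, Spearman's rho among 25 members that were each detected in at least 20 cells had a median of 0.06 over 300 pairs and a maximum of 0.36, for Oasl1 with Ifit1, as a description of cells that share groups, pools and depth.

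Of 68 listed genes of the rest of the interferon pathway, 67 were rows of the count table. Beside most ligands, Myd88, Irf8, Tlr9 and Gbp4 had 0 counts in all 4 groups, and whether their tags could be counted was not tested. Ligands were nearly absent: of 19 interferon genes, Ifna13 had 16 counts in WT_GFPlo cells, Ifnl3 had 1 in KO_GFPhi and 6 in WT_GFPhi cells, Ifnb1 had 1 in WT_GFPhi cells, and the rest had 0. At this depth that does not show that interferon was not made. Of receptors, 1 of 4 was at least 2-fold higher and 0 lower in KO_GFPhi than in WT_GFPhi cells: Ifnar1, a chain of the type I receptor, with 51.8 CPM in KO_GFPhi and 19 CPM in WT_GFPhi cells. Of 7 signalling genes, 0 were 2-fold apart. Of 8 genes of sensing and induction, 2 were lower and 2 higher, beside 29.5% lower and 20.2% higher of all genes. The higher ones were Tlr3, a sensor of double-stranded RNA, with 21 counts in KO_GFPhi and 5 in WT_GFPhi cells, and its adaptor Ticam1, with 36 counts in KO_GFPhi, 33 of them in 1 cell, and 6 in WT_GFPhi cells. The lower ones were Tlr7, a sensor of RNA in endosomes, with 1 count in KO_GFPhi and 99 in WT_GFPhi cells, and Irf3, a factor that induces interferon, with 34.5 CPM in KO_GFPhi and 76.1 CPM in WT_GFPhi cells.

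Of 23 further interferon targets with enough counts, 11 were at least 2-fold lower and 2 higher in KO_GFPhi than in WT_GFPhi cells, beside 29.5% lower and 20.2% higher of all genes. The chemokine Cxcl9 had 72.4 CPM in KO_GFPhi and 499 CPM in WT_GFPhi cells, and the peptide transporter subunit Tap1 had 98.3 CPM in KO_GFPhi and 219 CPM in WT_GFPhi cells. Ccl5, a chemokine that leukocytes also make, had 29.9 CPM in KO_GFPhi and 617 CPM in WT_GFPhi cells. Of its 2139 counts in WT_GFPhi cells, 1436 were of 1 cell, and 3 cells held 94.2%. It was detected in 21 of 48 KO_GFPhi and 18 of 61 WT_GFPhi cells, so the share of cells with a tag was not lower in the knockout. The higher ones were Ifitm3, which blocks viral entry, with 854 CPM in KO_GFPhi and 373 CPM in WT_GFPhi cells, and Sp100, a protein of nuclear bodies, with 79.0 CPM in KO_GFPhi and 34.6 CPM in WT_GFPhi cells. For Sp100 this rests on 1 cell, which held 150 of the 238 counts in KO_GFPhi cells. Sp100 was detected in 18 of 48 KO_GFPhi and 23 of 61 WT_GFPhi cells. Cxcl10, a chemokine with more counts than any member, had 1576 CPM in KO_GFPhi and 895 CPM in WT_GFPhi cells, a ratio of 1.76 (1.68 to 1.84). That interval covers counting error only, and 3 cells held 59.7% of the Cxcl10 counts in KO_GFPhi cells, against 26.9% for 3 cells in WT_GFPhi.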

How the data were processed

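The authors deposited whole-number counts per gene and cell, with no normalization. Per the submitters' processing notes, TopHat, TopHat2, Picard 1.79, SAMtools 0.1.19, HTSeq and mm10 were used, with no role or order given. Per the labels' protocols, RNA was primed with oligo-dT and amplified by in vitro transcription. The table holds 200 cells, used without a filter and with no step for doublets, and 0 columns were left without a sample. In 40 cells the total exceeded the deposited identifier count, so counts are treated as tags and not as molecules. Fluorescence intensity deposited by the authors was used only to correlate with the member level within groups. The 37 members and all lists were chosen with earlier results of these data known.

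A level is the summed count of a group over its total. With no animal named, a group is 1 sample, so there are no tests and no p-values. Intervals are exact 95% ones. Log2 ratios had 0.5 counts added. A floor of 3 counts gave bounds where a group was at 0. Cells came in 12 pools, 6 on each of 2 sort dates, with ls primers in 153 cells and umi primers in 47. Genes were named by this rule: all members are eligible, with levels for those with at least 50 counts and counts for the others, and genes of the fixed pathway lists are eligible. The ratios, intervals and calls were tested on simulated group sums with Poisson counting error alone. That checks the code and does not cover real counts, which were often held by few cells. The thinning depth of 13300 counts is near the 20th percentile of cell totals. Alternatives were TMM (edgeR 4.0.16, R 4.3.3) and median-of-ratios scaling, means of per-cell levels, each date, each pool left out, ls primers, and filters on cells, members and counts. Single sort dates and the removal of the highest cell were added for the counts of members after the data were seen, as were all alternatives for single members, the removal of the cells with most leukocyte marker counts and the sensor sum without Oasl2, Ifih1 and Oas2. Python 3.11.15 with numpy 2.4.6, pandas 2.3.3 and scipy 1.17.1 was used. A result that needs a withheld item is not reported here.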

Additional observations from a re-analysis of the deposited data

How the results depend on the processing

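No paired analysis was possible because replicate numbers only name cells and pair nothing between groups, each of which is 1 sample; cells of different groups share pools, and the report gives the ratios within them. The summed member level of KO_GFPhi over WT_GFPhi, a log2 ratio of -0.63, stayed below 0 in every alternative run: -0.55 with median-of-ratios scaling, -0.89 as the mean of per-cell levels, -0.94 and -0.46 on the first and second date, -0.86 without leukocyte-marked cells and -0.56 without the highest cell of each group. For KO_GFPlo over WT_GFPlo, at -0.30, it was 0.24 with ls primers alone, -0.44 as the mean, -0.19 and -0.41 by date, -0.49 without leukocyte-marked cells, -0.18 without the highest cells and -0.18 without Oasl2. For WT_GFPhi over WT_GFPlo, at -0.60, it was -0.34 as the mean, -0.12 and -0.94 by date, -0.21 with ls primers, -0.51 without the highest cells and -0.47 without Oasl2. For KO_GFPhi over KO_GFPlo, at -0.94, it was -0.82 with TMM scaling, which shifts every gene by 0.12 in this pair, -0.85 with median-of-ratios scaling, -0.79 as the mean, -0.87 on the first date and -1.05 with ls primers. With each pool left out in turn these 4 log2 ratios ran from -0.76 to -0.55, from -0.35 to -0.26, from -0.71 to -0.45 and from -1.02 to -0.78. Each count of members 2-fold apart, lower and higher summed, stayed within 1.5 times its value in the alternatives run, but the split by direction did not, as given above by date and without leukocyte-marked cells. The median number of members per thinned cell was 3, 5, 5 and 5 in KO_GFPhi, WT_GFPhi, KO_GFPlo and WT_GFPlo cells at 5000 counts, and 3, 5, 4 and 5 when a detection needed 2 counts. At 20000 counts it was 7 in KO_GFPhi, 10 in WT_GFPhi, 10 in KO_GFPlo and 9.5 in WT_GFPlo cells.

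Single members turned round as follows, and the cause was not tested. For KO_GFPhi over WT_GFPhi, Trim30a was 3.59 on the first date and 0.037 without leukocyte-marked cells. For KO_GFPlo over WT_GFPlo, with ls primers Irf7 was 1.01, Ddx58 0.43 and Trim30a 0.46. On the first date Ddx58 was 0.30, Zbp1 1.76, Oasl1 -2.74, Mx1 -0.39 and Trim30a 0.23, and on the second Oas2 was -6.02. Without leukocyte-marked cells Gbp2 was -0.80. With each pool left out, Zbp1 ran from -3.43 to 0.035, Oas2 from -5.71 to 5.13 and Oasl1 from -0.40 to 2.36. For WT_GFPhi over WT_GFPlo, Rsad2 was -2.94 on the second date, Mx2 -0.13 without leukocyte-marked cells and Trim30a 0.18 with ls primers. For KO_GFPhi over KO_GFPlo, on the first date Oasl1 was 1.46, Ifi44 0.34 and Gbp3 0.19, and without leukocyte-marked cells Trim30a was 0.35, Gbp3 0.080 and Parp9 0.49. Many members rest on few counts and few cells, and depth limits what can be said of those under 50 counts.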

Other observations

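Correlations between flow cytometer readings and the member level of a cell had both signs. Within groups and dates of at least 18 cells, Spearman's rho between GFP intensity and the member level per cell was 0.28 in KO_GFPhi cells of the second date. In WT_GFPhi cells it was 0.38 on the first date and -0.13 on the second. In KO_GFPlo cells it was -0.06 and -0.19, and in WT_GFPlo cells 0.11 and 0.38. For MHC class II intensity, rho was 0.18 in KO_GFPhi cells of the second date, -0.07 and -0.03 on the dates in WT_GFPhi cells, 0.09 and -0.17 in KO_GFPlo cells, and 0.38 and 0.01 in WT_GFPlo cells. These cells share groups and pools, so the values are a description.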
